A study of Mus musculus with 12 samples.

Results

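The Schlafen genes of the mouse were described in HSPCs, the haematopoietic stem and progenitor cells of bone marrow that give rise to all blood lineages. The 7 genes Slfn1, Slfn2, Slfn3, Slfn4, Slfn5, Slfn8 and Slfn9 were taken by symbol from a count table of 54532 Ensembl gene IDs, named with GENCODE M21, and all 7 were found. Messenger RNA was sequenced from 12 libraries in 4 groups of 3, all from bone marrow of mice labelled wild type. The groups were aged HSPCs cultured with uridine, aged HSPCs cultured with vehicle, uncultured aged HSPCs and uncultured young HSPCs. Uridine is a nucleoside of RNA that cells can import and reuse for nucleotide synthesis. No allele or transgene was named for any group, and the ages of the mice, the sort, the culture time, the uridine dose and the nature of the vehicle were not stated. The strain labels count upward from C57BL/6 over the samples, so the strain is uncertain. Nothing states that the 3 libraries of a group were separate mice or cultures, so the p-values reflect only how far these libraries spread, and that spread may be technical.

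Schlafen proteins are found in vertebrates, and the family has expanded in rodents. The mouse proteins fall into 3 size classes. The short ones, Slfn1 and Slfn2, hold little more than the core that all members share, the intermediate ones, Slfn3 and Slfn4, carry a further linker region, and the long ones, Slfn5, Slfn8 and Slfn9, add a part that resembles RNA helicases. The founding members were described as regulators of thymocyte growth, several members are induced by type I interferon, and several family proteins bind or cut transfer RNA. In haematopoiesis the family is best known for Slfn2, which resting T cells need in order to stay quiescent and survive.

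All 7 genes lie in one cluster on chromosome 11 of the GRCm38 assembly (the mm10 build). From low to high coordinates they are Slfn5 (ENSMUSG00000054404, chr11:82951349-82964840, plus strand), Slfn9 (ENSMUSG00000069793, chr11:82978390-82991830, minus), Slfn8 (ENSMUSG00000035208, chr11:83002158-83020810, minus), Slfn2 (ENSMUSG00000072620, chr11:83065112-83070678, plus), Slfn1 (ENSMUSG00000078763, chr11:83116849-83122670, plus), Slfn4 (ENSMUSG00000000204, chr11:83175186-83190216, plus) and Slfn3 (ENSMUSG00000018986, chr11:83191330-83215154, plus).

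Library totals ran from 16785065 to 19025802 counts. The low-count filter left 16675 genes, and all 7 members passed it. A level is stated in CPM (the count divided by the library's TMM-adjusted size) and, where the levels of different genes are compared, in CPM per kb of merged exon. A gene was called where edgeR's quasi-likelihood test, adjusted over all genes tested, gave a p below 0.05. Among HSPC genes, Kit averaged 274, 262, 201 and 254 CPM in uridine cultures, vehicle cultures, uncultured aged cells and uncultured young cells. In the same order Cd34 averaged 349, 407, 201 and 282 CPM. Both genes were named after their values were seen. None of 12 stem and progenitor markers was at 0 in a whole group, which does not settle the cell type. With uridine 3 of them were called higher, 5 lower and 4 not called. In aged against young cells 4 were higher, 5 lower and 3 not called. In vehicle culture against uncultured aged cells 6 were higher, 3 lower and 3 not called. Over all genes tested, 20.0% were called higher and 18.1% lower with uridine, 33.2 and 32.1% with age, and 35.4 and 35.1% in culture. The uncultured aged libraries stood apart, because immunoglobulin genes and Jchain held 21.6 to 21.9% of their counts, against 0.54 to 0.544% in uncultured young libraries, while uridine libraries held 0.601 to 0.615% and vehicle libraries 0.922 to 0.924%. With those genes left out before scaling, every member kept its call and its direction in each of the 3 comparisons made between neighbouring groups (uridine against vehicle, aged against young, vehicle culture against uncultured aged). These are bulk libraries, in which fewer cells of a type and less RNA per cell cannot be told apart.

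In culture the whole family stood far above its level in freshly isolated aged cells. All 7 members were higher in vehicle cultures than in uncultured aged cells (35.4% of all genes tested were called higher and 35.1% lower), by 7.56-fold for Slfn3 up to 42.5-fold for Slfn4, with a median log2 fold change of 3.88 beside -0.01 over all genes tested. With age, 5 members were lower in aged than in young uncultured cells and 2 were not called (32.1% of all genes were called lower and 33.2% higher), with a median of -1.08 beside 0.02 over all genes. With uridine, 6 members were lower than in vehicle cultures and Slfn3 was not called (18.1% of all genes were called lower and 20.0% higher), with a median of -0.57 beside 0 over all genes. For 7 members no vehicle library overlapped an uncultured aged one, which held for 71.5% of all genes. The counts were 5 members in aged against young cells, beside 66.9% of all genes, and 6 members in uridine against vehicle, beside 50.0%. The comparisons share groups: the vehicle libraries serve in 2 of them, and so do the uncultured aged libraries.

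**Figure D1:**
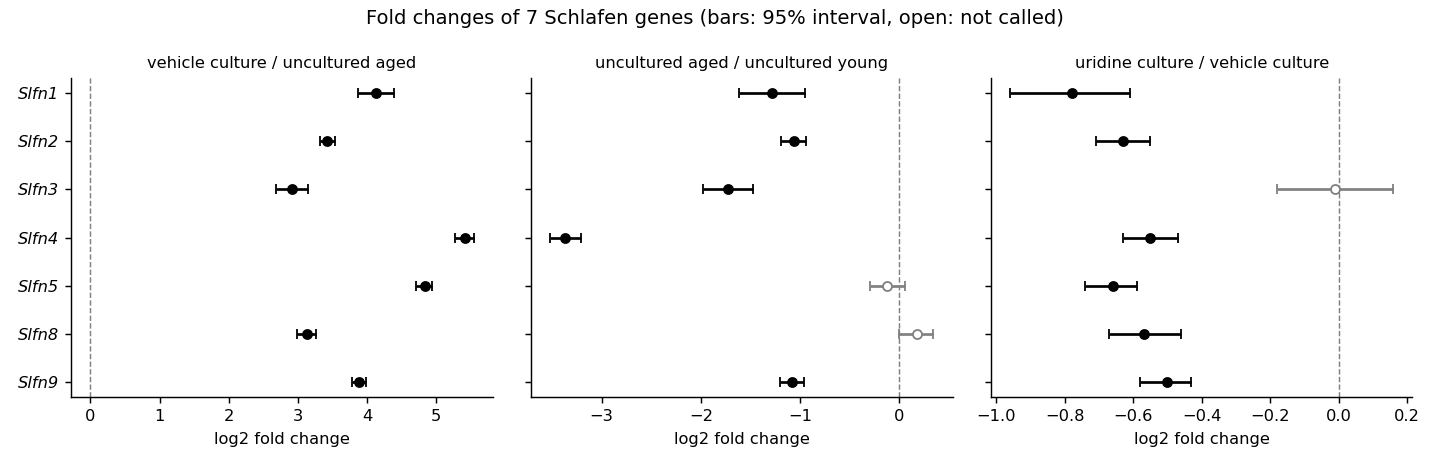
Log2 fold changes of the 7 Schlafen genes in vehicle culture over uncultured aged cells, uncultured aged over uncultured young cells and uridine over vehicle culture, with 95% intervals (n = 3 libraries a group); open points were not called by edgeR. All 7 points lie right of 0 for culture, Slfn5 and Slfn8 lie near 0 for age, and Slfn3 lies at -0.01 for uridine.

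Among the short forms, Slfn2 was the most abundant member in every group. Slfn2 reached 84.9, 78.8 and 84.8 CPM per kb in uridine cultures, 131, 123 and 129 in vehicle cultures, 12.1, 11.0 and 12.6 in uncultured aged cells and 25.7, 24.8 and 24.3 in uncultured young cells. The 4 groups did not overlap, with vehicle cultures highest and uncultured aged cells lowest. Slfn2 was 10.7-fold higher in vehicle cultures than in uncultured aged cells (log2 difference 3.42, SE 0.0525, edgeR adjusted p = 1.04e-35). It stood at 47.8% of the young level in aged cells (log2 difference -1.06, SE 0.0609, edgeR adjusted p = 1.44e-17) and at 64.8% of the vehicle level in uridine cultures (log2 fold change -0.63, SE 0.0397, edgeR adjusted p = 1.53e-15).

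Slfn1, the other short form, whose forced expression in mouse thymocytes blocks their growth, was measured at 13.1, 13.7 and 13.6 CPM per kb in uridine cultures, 22.5, 23.6 and 23.2 in vehicle cultures, 0.964, 1.79 and 1.22 in uncultured aged cells and 3.32, 3.32 and 2.99 in uncultured young cells. Its order of groups was that of Slfn2, again without overlap. The uncultured aged values rest on 27, 48 and 33 counts and are the least precise of the family. Slfn1 was 17.5-fold higher in vehicle cultures than in uncultured aged cells (log2 difference 4.13, SE 0.128, edgeR adjusted p = 6.57e-26) and stood at 41.1% of the young level in aged cells (log2 difference -1.28, SE 0.164, edgeR adjusted p = 1.74e-08). It had the largest difference with uridine in the family, 58.1% of the vehicle level (log2 fold change -0.78, SE 0.0869, edgeR adjusted p = 2.73e-09). A difference of that size or more was found for 3.06% of all genes tested.

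Of the intermediate forms, Slfn4, a gene of myeloid cells that is regulated when mouse macrophages mature or are activated, had the widest range. Slfn4 was measured at 47.1, 44.2 and 44.6 CPM per kb in uridine cultures, 66.9, 67.3 and 64.4 in vehicle cultures, 1.51, 1.91 and 1.25 in uncultured aged cells and 15.9, 15.6 and 16.8 in uncultured young cells. The groups did not overlap. In vehicle cultures it was 42.5-fold above uncultured aged cells (log2 difference 5.41, SE 0.0666, edgeR adjusted p = 1.06e-38), a size that 0.798% of all genes reached. In uncultured aged cells it stood at 9.7% of the young level (log2 fold change -3.37, SE 0.0768, edgeR adjusted p = 7.31e-30), a size that 1.04% of all genes reached. In uridine cultures it stood at 68.4% of the vehicle level (log2 fold change -0.55, SE 0.0403, edgeR adjusted p = 9.81e-14).

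Slfn3, the neighbour of Slfn4 in the cluster and a gene studied in rodent gut epithelium, was the least abundant member of both cultured groups. Slfn3 was measured at 8.92, 8.76 and 8.70 CPM per kb in uridine cultures, 9.08, 8.50 and 8.96 in vehicle cultures, 1.09, 1.22 and 1.19 in uncultured aged cells and 4.07, 4.22 and 3.30 in uncultured young cells. The uridine libraries all lay inside the range of the vehicle libraries, while the other groups did not overlap. The log2 fold change of uridine over vehicle was -0.01, with a 95% interval of -0.18 to 0.16 (edgeR adjusted p = 0.95). Its sign turned in some alternative settings, while the estimate there stayed within that interval except after the subtraction described below. Slfn3 was 7.56-fold higher in vehicle cultures than in uncultured aged cells (log2 difference 2.92, SE 0.116, edgeR adjusted p = 1.57e-22), and stood at 30.2% of the young level in aged cells (log2 difference -1.73, SE 0.127, edgeR adjusted p = 1.84e-14).

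Of the long forms, Slfn5, a member found in the nucleus and induced by interferon in mouse and human cells, did not differ detectably with age and was among the most strongly raised in culture. Slfn5 was measured at 27.8, 27.3 and 27.3 CPM per kb in uridine cultures, 43.7, 43.3 and 43.6 in vehicle cultures, 1.28, 1.69 and 1.62 in uncultured aged cells and 1.67, 1.71 and 1.61 in uncultured young cells. The aged and young libraries overlapped, and the cultured groups stood apart from them and from each other. In vehicle cultures Slfn5 was 28.4-fold higher than in uncultured aged cells (log2 difference 4.83, SE 0.0562, edgeR adjusted p = 1.74e-39). In aged against young cells the log2 fold change was -0.12, with a 95% interval of -0.29 to 0.06 (edgeR adjusted p = 0.243). It was -0.00369 without uncultured aged library 1 (edgeR adjusted p = 0.978) and -0.20 without uncultured aged library 2 (edgeR adjusted p = 0.0897). In uridine cultures it stood at 63.1% of the vehicle level (log2 fold change -0.66, SE 0.037, edgeR adjusted p = 3.92e-17).

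Slfn8 and Slfn9 are close relatives of human SLFN11 and SLFN13, whose proteins act on stalled replication and on transfer RNA in human cells. Slfn9 was measured at 31.8, 30.2 and 29.8 CPM per kb in uridine cultures, 43.3, 42.4 and 44.6 in vehicle cultures, 2.81, 3.04 and 2.98 in uncultured aged cells and 6.36, 6.00 and 6.33 in uncultured young cells. The 4 groups did not overlap, in the order that Slfn1, Slfn2 and Slfn4 also had. Slfn9 was 14.7-fold higher in vehicle cultures than in uncultured aged cells (log2 difference 3.88, SE 0.049, edgeR adjusted p = 2.3e-38). It stood at 47.2% of the young level in aged cells (log2 difference -1.08, SE 0.0587, edgeR adjusted p = 3.08e-18) and at 70.5% of the vehicle level in uridine cultures (log2 fold change -0.5, SE 0.0355, edgeR adjusted p = 2.95e-14). The uridine call of Slfn9 was lost after the subtraction described below (-0.04, edgeR adjusted p = 0.572).

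Slfn8 was measured at 29.3, 27.0 and 29.9 CPM per kb in uridine cultures, 43.4, 42.5 and 41.7 in vehicle cultures, 4.30, 4.41 and 5.93 in uncultured aged cells and 4.02, 4.32 and 4.60 in uncultured young cells. The aged and young libraries overlapped. The log2 fold change of aged over young cells was 0.18, with a 95% interval of 0 to 0.35 (edgeR adjusted p = 0.0716). It was called higher when uncultured aged library 1 (0.26, edgeR adjusted p = 0.0125), uncultured aged library 2 (0.24, edgeR adjusted p = 0.0234) or uncultured young library 3 (0.22, edgeR adjusted p = 0.0441) was left out, and lay between 0.02 and 0.26 over all the alternatives. In vehicle cultures Slfn8 was 8.73-fold higher than in uncultured aged cells (log2 difference 3.13, SE 0.0676, edgeR adjusted p = 6.35e-31). In uridine cultures it stood at 67.5% of the vehicle level (log2 fold change -0.57, SE 0.0524, edgeR adjusted p = 3.62e-11), a call that was lost after the subtraction described below (-0.07, edgeR adjusted p = 0.454).

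**Figure D2:**
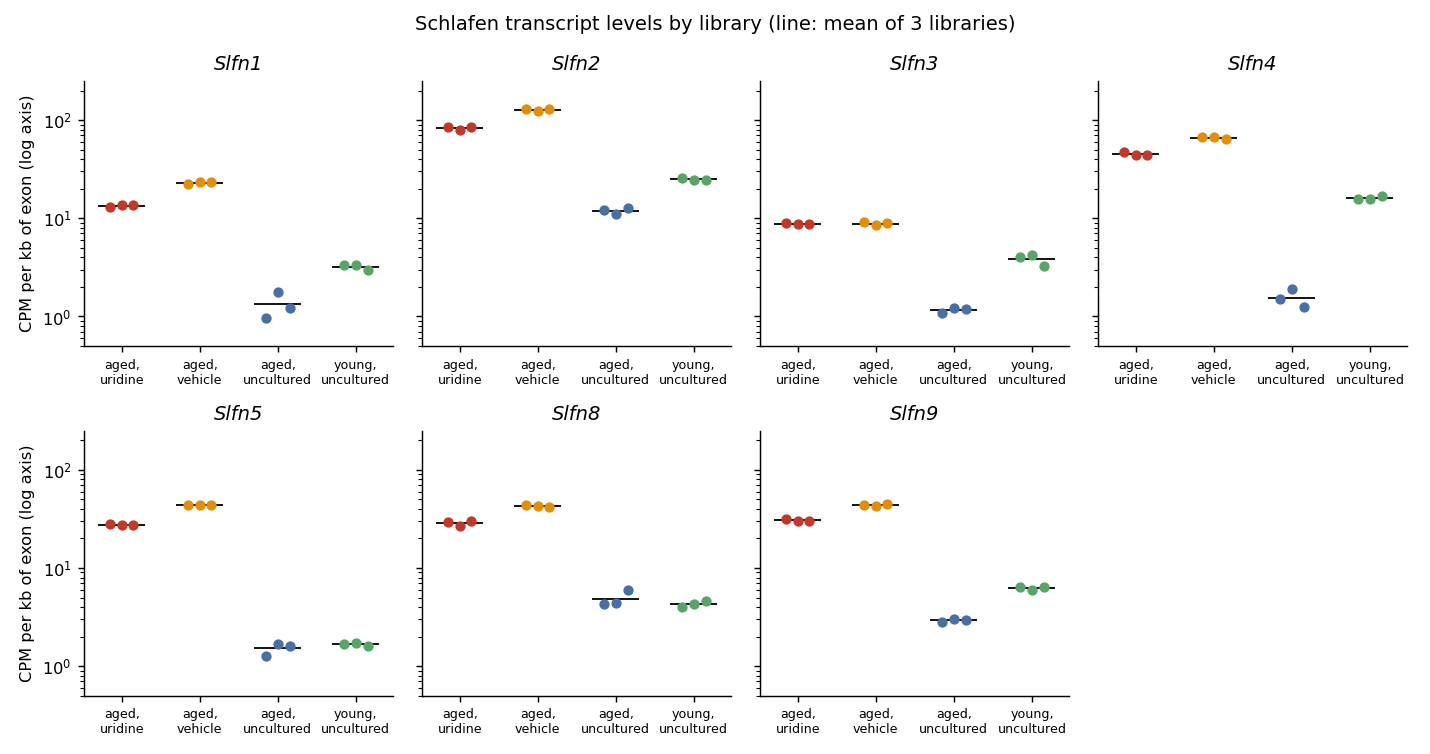
CPM per kb of exon (log axis) of each Schlafen gene in the 12 libraries; points are libraries and the line is the mean of 3. Uridine cultures lie below vehicle cultures for every gene but Slfn3, uncultured cells lie below both, and the uncultured aged libraries overlap the uncultured young ones for Slfn5 and Slfn8.

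In genes far lower in vehicle cultures than in young cells, the uridine libraries lay part of the way towards young cells, and those values stand beside the lower Schlafen levels. There were 145 genes at least 10 times higher in uncultured young cells than in vehicle cultures, with at least 5 CPM in young cells, and none was a Schlafen gene. On a scale where vehicle cultures are at 0% and uncultured young cells at 100%, the uridine cultures lay at a median of 33.3% for these genes (quartiles 31 and 36.3), and 135 of the 145 lay within 10 percentage points of that median. Markers of different cells, all among the 145 genes and named after their values were seen, are given as examples. On this scale Slc4a1 of red cells lay at 35.1%, Car1 of erythroid cells at 33.3% and the neutrophil granule genes Ltf and Ngp both at 33.7%. Col1a1 and Col1a2 of bone matrix lay at 28.1 and 27.9%, below the lower quartile. On the same scale the Schlafen genes lay at 34.4% (Slfn9), 36.1% (Slfn8), 38.3% (Slfn5), 41.7% (Slfn4), 43.8% (Slfn2) and 48.6% (Slfn1), with Slfn3 at 1.04%. Such a position is not a share of the young level, which all 7 members exceeded in uridine cultures.

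When a young-like part of that median size was subtracted from the uridine libraries, an alternative chosen after seeing the data, most Schlafen differences shrank and some calls were lost. The remaining counts were rescaled, so a gene lower in young cells than in uridine cultures rises by construction. All 7 members were such genes, so the direction of their move was set by the method. Slfn1 was then at 79.3% of the vehicle level (edgeR adjusted p = 0.0153), Slfn2 at 86.4% (0.00108), Slfn4 at 89.4% (0.0164) and Slfn5 at 91.7% (0.0317). Slfn8, at 95.1% (edgeR adjusted p = 0.454), and Slfn9, at 97.5% (0.572), were no longer called. Slfn3 was called higher, at 126% of the vehicle level (edgeR adjusted p = 0.0122). The median over the 7 members was -0.13 on the log2 scale, against -0.57 without the subtraction, and the number of genes called over the whole table was 2758, against 6360 (16.6% of the genes then tested were called in either direction). A single fraction left several markers of the young-like part off the vehicle level. Slc4a1 (log2 fold change 7.98), Ermap (3.58), Camp (1.25) and Ngp (0.3) were called higher after it. Col1a1 (-4.99), Col1a2 (-7.79) and Igll1 (-2.48) were called lower, and Car1, Ltf and Pax5 were not called. Slc4a1, Ermap and Col1a1 were near 0 CPM in vehicle cultures. The subtracted part is thus approximate for single genes. The p-values after it come from altered counts and treat the fraction and the young mean as known without error. They leave out that uncertainty, so calls kept, lost or gained after the subtraction are descriptive only. Whether the uridine libraries hold RNA of uncultured cells was not tested, so the part that such RNA has in the lower Schlafen levels was not tested either.

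**Figure D3:**
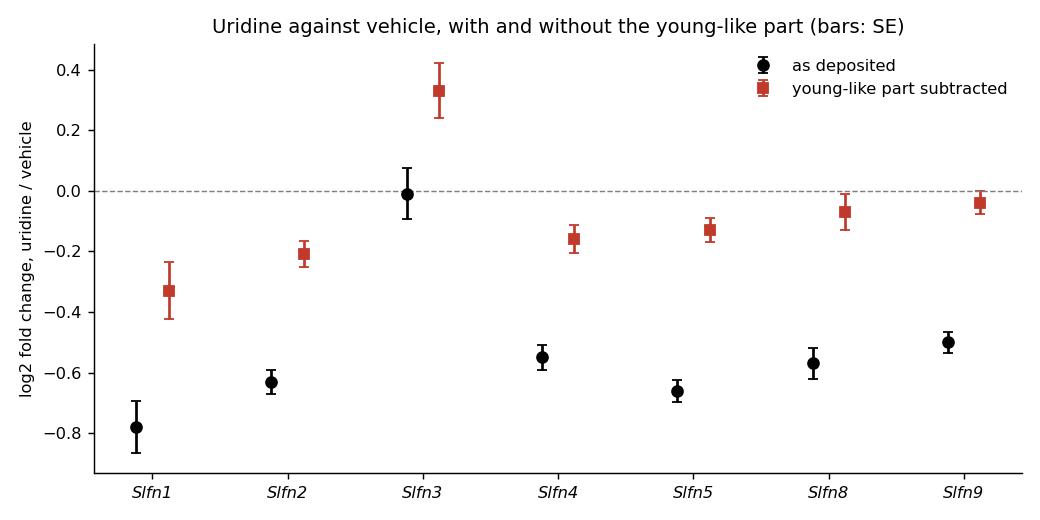
Log2 fold change of uridine over vehicle cultures for each Schlafen gene, with SE, from the deposited counts (black circles) and after subtraction of a young-like part of 33.3% from the uridine libraries (red squares). The estimates move from a range of -0.78 to -0.01 to a range of -0.33 to 0.33.

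Uridine cultures did not stand at the level of fresh cells. All 7 members were higher in uridine cultures than in uncultured young cells by edgeR's quasi-likelihood test (26.2% of all genes were called higher), by 2.27-fold for Slfn3, 2.82-fold for Slfn4, 3.32-fold for Slfn2, 4.18-fold for Slfn1, 4.91-fold for Slfn9, 6.67-fold for Slfn8 and 16.5-fold for Slfn5. These groups differ in age, culture and uridine at once, which cannot be told apart here. Against uncultured aged cells all 7 were also higher, by 5.89-fold (Slfn8) to 29.1-fold (Slfn4), where 5969 of 16675 genes tested were called higher.

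Summed over the 7 genes, the family reached 237 ± 6.63 CPM per kb in uridine cultures, 355 ± 4.77 in vehicle cultures, 25.3 ± 1.39 in uncultured aged cells and 60.3 ± 0.622 in uncultured young cells (SD, n = 3 each). Slfn2 held the largest share of this sum in each group, 34.9% in uridine cultures, 36% in vehicle cultures, 47.1% in uncultured aged cells and 41.3% in uncultured young cells. Behind it the order differed between groups. Slfn4 was second in uridine cultures (45.3 ± 1.53 CPM per kb), vehicle cultures (66.2 ± 1.53) and uncultured young cells (16.1 ± 0.64), whereas Slfn8 was second in uncultured aged cells (4.88 ± 0.912; SD, n = 3 each). In uridine cultures Slfn9, Slfn8 and Slfn5 followed at 30.6 ± 1.05, 28.7 ± 1.5 and 27.5 ± 0.326 CPM per kb, and the libraries of Slfn8 overlapped those of both others. In vehicle cultures Slfn5, Slfn9 and Slfn8, at 43.5 ± 0.211, 43.4 ± 1.12 and 42.5 ± 0.833 CPM per kb, were neighbours whose libraries overlapped. In uncultured aged cells the libraries of Slfn4, Slfn5 and Slfn1 overlapped, at 1.56 ± 0.333, 1.53 ± 0.219 and 1.33 ± 0.424 CPM per kb, and those of Slfn3 (1.17 ± 0.0682) lay inside the range of Slfn1. In uncultured young cells the libraries of Slfn3 (3.87 ± 0.493 CPM per kb) overlapped those of Slfn8 (4.31 ± 0.29) and of Slfn1 (3.21 ± 0.19), and Slfn5 was last, at 1.66 ± 0.0531 CPM per kb, below all libraries of the other members.

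The shares of Slfn4, Slfn8 and Slfn5 in the sum were spread over the groups. Slfn4 made up 19.1% ± 0.359 of the summed CPM per kb in uridine cultures, 18.6% ± 0.539 in vehicle cultures, 6.19% ± 1.48 in uncultured aged cells and 26.7% ± 1.18 in uncultured young cells. Slfn8 made up 12.1% ± 0.377, 12% ± 0.203, 19.2% ± 2.54 and 7.16% ± 0.545 in the same order, and Slfn5 11.6% ± 0.23, 12.2% ± 0.108, 6.05% ± 0.713 and 2.76% ± 0.0908 (SD, n = 3 each). The ratio of each member's CPM to the summed CPM of the other 6, which is not scaled by length and serves only to compare groups for 1 member, was compared between groups with an exact two-sided permutation test, whose smallest p with 3 against 3 libraries is 0.1, in 21 tests. Relative to the other 6, Slfn4 was lower by 2.61 on the log2 scale in aged than in young cells (-3.59 against -0.98), and Slfn8 and Slfn5 were higher by 1.69 and 1.23. Relative to the others, Slfn3 was higher by 0.58 in uridine than in vehicle cultures (-4.77 against -5.35). Each of these ratios reached that smallest p (exact p = 0.1, adjusted over the 21 tests 0.15), so none passes 0.05. Other ratios reached it too, among them those of Slfn1 and Slfn5 with uridine and of Slfn2 with age. The ratios also depend on one another, because each member is part of the sum that the others are divided by. The ratio of Slfn8 was -2.63 in uridine and -2.64 in vehicle cultures (exact p = 1).

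**Figure D4:**
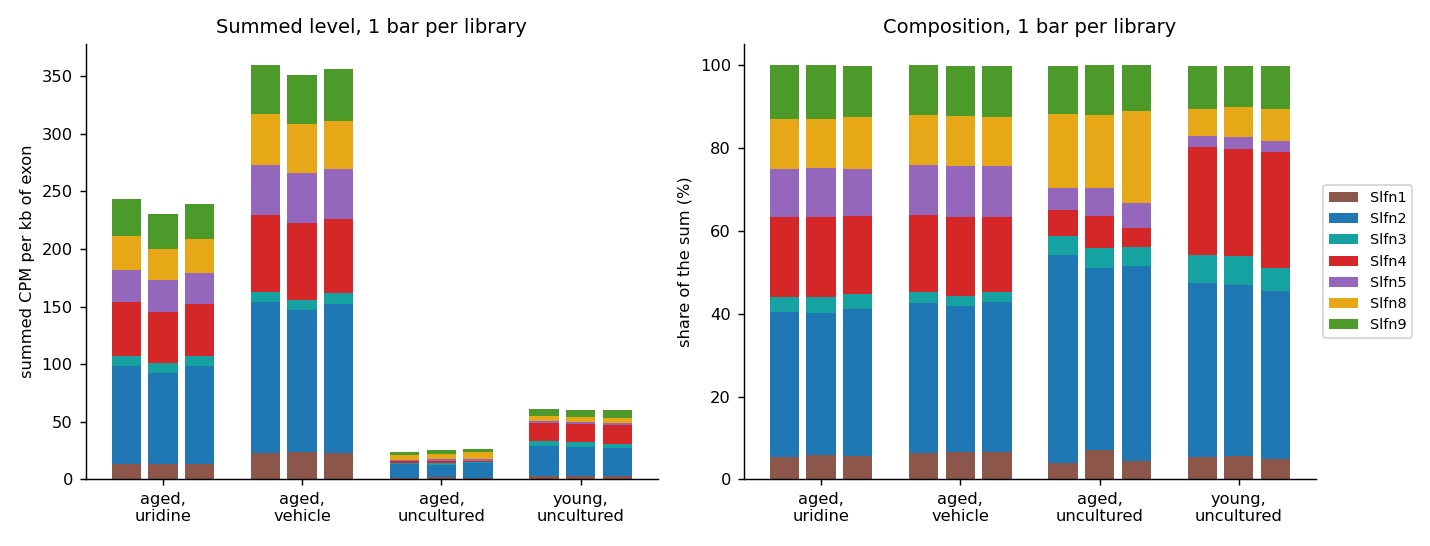
Summed CPM per kb of the 7 Schlafen genes (left) and the share of each gene in that sum in percent (right), with 1 bar per library. Vehicle cultures have the tallest bars, near 355 CPM per kb, and uncultured aged cells the shortest, near 25.3; the Slfn4 share is smallest in uncultured aged cells.

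Promoter sequences are shown because the members moved together in culture and interferon-induced genes often carry the interferon-stimulated response element. RefSeq windows of GRCm38.p6 running from 250 bases before to 50 bases after a gene's start were matched for all 7 members, and the core of that element, GAAA repeated after any 2 bases, was searched on both strands. It was found in windows of Slfn5, Slfn8 and Slfn9 and in none of Slfn1, Slfn2, Slfn3 or Slfn4. Of 27025 genes with a window, 1079 held it (3.99%), and of 32851 windows 1131 did (3.44%). A second motif, the gamma-activated site TTCNNNGAA, which reads the same on both strands, was in none of the members' windows and in 8.3% of all windows, so the motifs did not overlap in these windows. The windows of Slfn5 (chr11:82951852-82952151, plus strand), Slfn8 (chr11:83020761-83021060, minus), Slfn9 (chr11:82991781-82992080, minus) and Slfn4 (chr11:83174936-83175235, plus) follow, each read 5′ to 3′ along its gene, with matches to the core in capitals; Slfn4 is shown as a member of wide range without a match.
Slfn5: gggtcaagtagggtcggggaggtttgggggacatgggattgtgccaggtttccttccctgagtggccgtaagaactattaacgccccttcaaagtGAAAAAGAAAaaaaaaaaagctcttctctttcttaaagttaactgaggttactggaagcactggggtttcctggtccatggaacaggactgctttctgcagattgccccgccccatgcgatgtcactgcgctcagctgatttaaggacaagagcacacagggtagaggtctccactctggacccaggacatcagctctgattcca
Slfn8: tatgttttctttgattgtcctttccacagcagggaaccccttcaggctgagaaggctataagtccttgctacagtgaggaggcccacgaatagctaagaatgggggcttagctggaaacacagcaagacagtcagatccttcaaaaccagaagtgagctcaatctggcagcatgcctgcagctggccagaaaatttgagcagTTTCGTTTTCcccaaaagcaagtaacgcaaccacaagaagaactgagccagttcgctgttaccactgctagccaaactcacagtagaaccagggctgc
Slfn9: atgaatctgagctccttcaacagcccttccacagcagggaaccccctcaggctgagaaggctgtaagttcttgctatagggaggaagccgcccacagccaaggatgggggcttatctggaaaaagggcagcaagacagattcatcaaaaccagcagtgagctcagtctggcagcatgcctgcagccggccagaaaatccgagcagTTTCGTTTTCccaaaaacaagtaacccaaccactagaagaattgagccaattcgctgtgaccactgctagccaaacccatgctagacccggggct
Slfn4: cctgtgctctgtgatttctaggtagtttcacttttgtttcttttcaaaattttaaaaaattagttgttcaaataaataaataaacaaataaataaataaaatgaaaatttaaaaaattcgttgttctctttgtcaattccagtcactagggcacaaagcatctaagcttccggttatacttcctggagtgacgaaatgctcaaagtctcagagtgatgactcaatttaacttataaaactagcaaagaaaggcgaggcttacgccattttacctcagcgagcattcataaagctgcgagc

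The match began 155 bases before the start in Slfn5, 48 before it in Slfn8 and 45 before it in Slfn9, and lay on the opposite strand of the window in Slfn8 and Slfn9. The window of a second Slfn8 start holds the same match. The windows of Slfn9 and Slfn8 were identical at 246 of 305 aligned columns (80.7%), while the other pairs of members were identical at 42 to 50%. The alignments allowed gaps and no level for unrelated windows was computed, so these lower values do not show related sequence. The start site on which the Slfn5 window is placed lies 753 bases inside the GENCODE gene, where a shorter transcript begins. In culture the 3 members with a match (Slfn5 4.83, Slfn8 3.13 and Slfn9 3.88 on the log2 scale) lay among those without (Slfn1 4.13, Slfn2 3.42, Slfn3 2.92 and Slfn4 5.41). A match is a description of letters and not a binding site, and the lack of one says only that the letters are not in this window.

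Genes that interferons induce were high in culture as a list. Of 30 such genes, all 30 were higher in vehicle cultures than in uncultured aged cells (median log2 fold change 3.82), all 30 were lower in uridine than in vehicle cultures (median -0.65), and 24 were lower, 4 higher and 2 not called in aged against young cells (median -0.68), by edgeR's quasi-likelihood test. Over all genes tested, 35.4% were called higher in culture, 18.1% lower with uridine and 32.1% lower with age. Oas3, a sensor of double-stranded RNA, averaged 277 CPM in uridine cultures, 403 in vehicle cultures, 6.46 in uncultured aged cells and 25.7 in uncultured young cells. Isg15, a ubiquitin-like modifier, averaged 120, 219, 2.87 and 4.84 CPM in the same order, and Ifitm3, which blocks virus entry, 483, 839, 60 and 82.6 CPM. With the young-like part subtracted, 15 of the 30 were lower with uridine and 15 were not called (median -0.14), where 16.6% of all genes were called in either direction. The core motif was in a window of 3 of the 7 Schlafen genes (42.9%) and of 12 of the 22 genes of the list that had a window (54.5%).

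Among the receptors and signal proteins of the interferon pathway, most were lower with uridine and most were higher in culture, while calls with age were even. The shares of all genes tested called lower and higher were 18.1 and 20.0% with uridine, 32.1 and 33.2% with age, and 35.1 and 35.4% in culture. Of 18 tested, 11 were lower, 2 higher and 5 not called in uridine against vehicle cultures (median -0.24), 6 were lower, 6 higher and 6 not called in aged against young cells (median -0.03), and 12 were higher, 5 lower and 1 not called in vehicle cultures against uncultured aged cells (median 0.56). Irf7, the transcription factor that amplifies type I interferon production, averaged 329 CPM in uridine cultures, 558 in vehicle cultures, 23 in uncultured aged cells and 23.9 in uncultured young cells. For uridine, age and culture, the log2 fold changes were -0.66, -0.12 (not called) and 4.83 in Slfn5 and -0.76, -0.06 (not called) and 4.6 in Irf7. Stat2, a subunit of the factor that binds the response element, was lower by 0.51 with uridine and higher by 2.8 in culture on the log2 scale. Irf8, a factor of the monocyte lineage, ran the other way, higher by 0.55 with uridine and lower by 0.76 in culture.

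Lists for processes tied to Schlafen proteins gave calls in both directions with uridine, where 20.0% of all genes tested were called higher and 18.1% lower. The shares of all genes called higher and lower were 33.2 and 32.1% with age, and 35.4 and 35.1% in culture. Among 8 genes that cut or protect transfer RNA, 1 was higher, 1 lower and 6 not called with uridine, 2 were higher, 3 lower and 3 not called with age, and 2 were higher, 2 lower and 4 not called in culture, counts near or under the shares over all genes. Rnh1, the ribonuclease inhibitor, was lower by 0.43 with uridine and higher by 0.71 in culture on the log2 scale. Among 12 cyclins, kinases and inhibitors of the G1 phase, 5 were higher, 3 lower and 4 not called with uridine, all 12 were lower with age, and 10 were higher, 1 lower and 1 not called in culture. Ccnd3, a D-type cyclin of blood cells, averaged 262 CPM in uridine cultures, 213 in vehicle cultures, 126 in uncultured aged cells and 375 in uncultured young cells.

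Markers of other blood cells moved as well. Summed over their lists, markers of monocytes and macrophages, megakaryocytes and dendritic cells had the order of groups that Slfn1, Slfn2, Slfn4 and Slfn9 had, with vehicle cultures highest and uncultured aged cells lowest. The stem and progenitor markers had this order too. They summed to 1860 to 1910 CPM in uridine, 2060 to 2080 in vehicle, 1550 to 1590 in uncultured aged and 1670 to 1700 in uncultured young libraries. The 12 monocyte and macrophage markers summed to 3480 to 3530 CPM in uridine, 5050 to 5130 in vehicle, 911 to 915 in uncultured aged and 1940 to 2010 in uncultured young libraries. Of the 12, 9 were lower and 1 higher with uridine, 7 lower and 1 higher with age, and 10 higher and 2 lower in culture. For comparison, 18.1% of all genes tested were called lower and 20.0% higher with uridine. With age 32.1% were lower and 33.2% higher, and in culture 35.1% were lower and 35.4% higher. Lyz2, the lysozyme of myeloid cells, averaged 1790, 2770, 140 and 995 CPM in the order of groups above, and Csf1r, the receptor of macrophage growth factor, 320, 409, 76.2 and 183 CPM. The 7 megakaryocyte markers summed to 1000 to 1010, 1500 to 1510, 118 to 127 and 198 to 201 CPM. The 8 dendritic cell markers summed to 580 to 591, 748 to 756, 407 to 436 and 445 to 455 CPM, although with uridine 4 of them were higher, 1 lower and 3 not called. The 10 markers of maturing neutrophils ran another way, at 2060 to 2130, 319 to 328, 555 to 596 and 5480 to 5700 CPM, and so did the 10 erythroid markers, at 429 to 439, 255 to 266, 285 to 303 and 745 to 752 CPM. The 6 basophil and mast cell markers stood at 551 to 565, 378 to 387, 167 to 176 and 1020 to 1070 CPM, and the 8 markers of stroma and endothelium at 274 to 281, 145 to 146, 119 to 130 and 636 to 664 CPM. The 10 B cell markers stood at 525 to 552, 442 to 444, 6040 to 6310 and 976 to 983 CPM, the 7 plasma cell markers at 699 to 724, 1040 to 1090, 25500 to 25700 and 628 to 637 CPM, and the 12 T and natural killer cell markers at 73.2 to 77.5, 45.9 to 48.4, 312 to 343 and 137 to 142 CPM. No marker of these lists was at 0 in a whole group, except Slc4a1 in vehicle cultures. The part of the cell make-up in the Schlafen differences was not tested.

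The remaining Schlafen genes had low counts. Slfn10-ps, a transcribed pseudogene between Slfn8 and Slfn2, had 278, 307 and 262 counts in uridine, 352, 341 and 342 in vehicle, 31, 49 and 59 in uncultured aged and 85, 114 and 83 in uncultured young libraries. By edgeR it was lower with uridine (log2 fold change -0.41, adjusted p = 0.00999), lower with age (-0.66, adjusted p = 0.00325) and higher in culture (2.57, adjusted p = 3.04e-16). Slfn14, which in mouse and human is tied to platelets and red cells, had 15, 21, 2 and 6 counts summed over the 3 libraries of uridine, vehicle, uncultured aged and uncultured young cells, and Slfnl1, on chromosome 4, had 7, 5, 2 and 4. Both were too low to be tested.

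Members share sequence, which limits how far reads can be assigned, since neither the counting program nor its treatment of strand was stated. Of stretches of 150 bases, the length of 1 read, none of Slfn1, Slfn2, Slfn4 or Slfn8 occurred in another annotated gene, whereas 1.29% of Slfn3 (in the pseudogene Gm11427), 1.46% of Slfn9 (in Slfn10-ps) and 5.46% of Slfn5 did. The Slfn5 stretches lie in the overlapping gene Slfn5os, which had 0 or 1 count in each library. Of stretches of 50 bases, up to 16% (Slfn3) of those of a member occurred elsewhere. The pseudogene Slfn10-ps shared more, 19.7% of its stretches of 50 bases (13.5% with Slfn9) and 2.51% of those of 150 bases. How far its counts are reads of the more abundant Slfn9 was not tested.

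Genes around the cluster did not move as a block. Within 500 kb of the members on either side, 57 other genes lie in the count table and 27 were tested, Schlafen genes aside. In culture 12 of the 27 were higher, 6 lower and 9 not called, while the median log2 fold change was 3.88 for the members and 0.13 for the 27. In aged against young cells 11 were higher, 8 lower and 8 not called (median -1.08 for the members and 0.19 for the 27), and with uridine 3 were higher, 4 lower and 20 not called (median -0.57 for the members and -0.04 for the 27). Of all genes tested, 35.4% were higher and 35.1% lower in culture, 33.2 and 32.1% with age, and 20.0 and 18.1% with uridine. Chemokine genes lie at the far end of this window, 461 to 597 kb beyond Slfn2. With uridine they differed: Ccl5 and Ccl9 were lower by 0.71 and 0.6 on the log2 scale, while Ccl4 and Ccl3 were higher by 0.45 and 0.21. In culture Ccl3, Ccl4, Ccl5, Ccl6 and Ccl9 were all called higher, by 0.73 (Ccl4) to 2.31 (Ccl6). With age Ccl5 was higher by 2.68 and the other named chemokines were lower. Nearer genes such as Ap2b1 (-0.02) and Lig3 (-0.04) were not called with uridine. Both were called higher in culture (0.39 and 0.82) and lower with age (-0.27 and -0.49), the direction of most members, by smaller amounts.

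**Figure D5:**
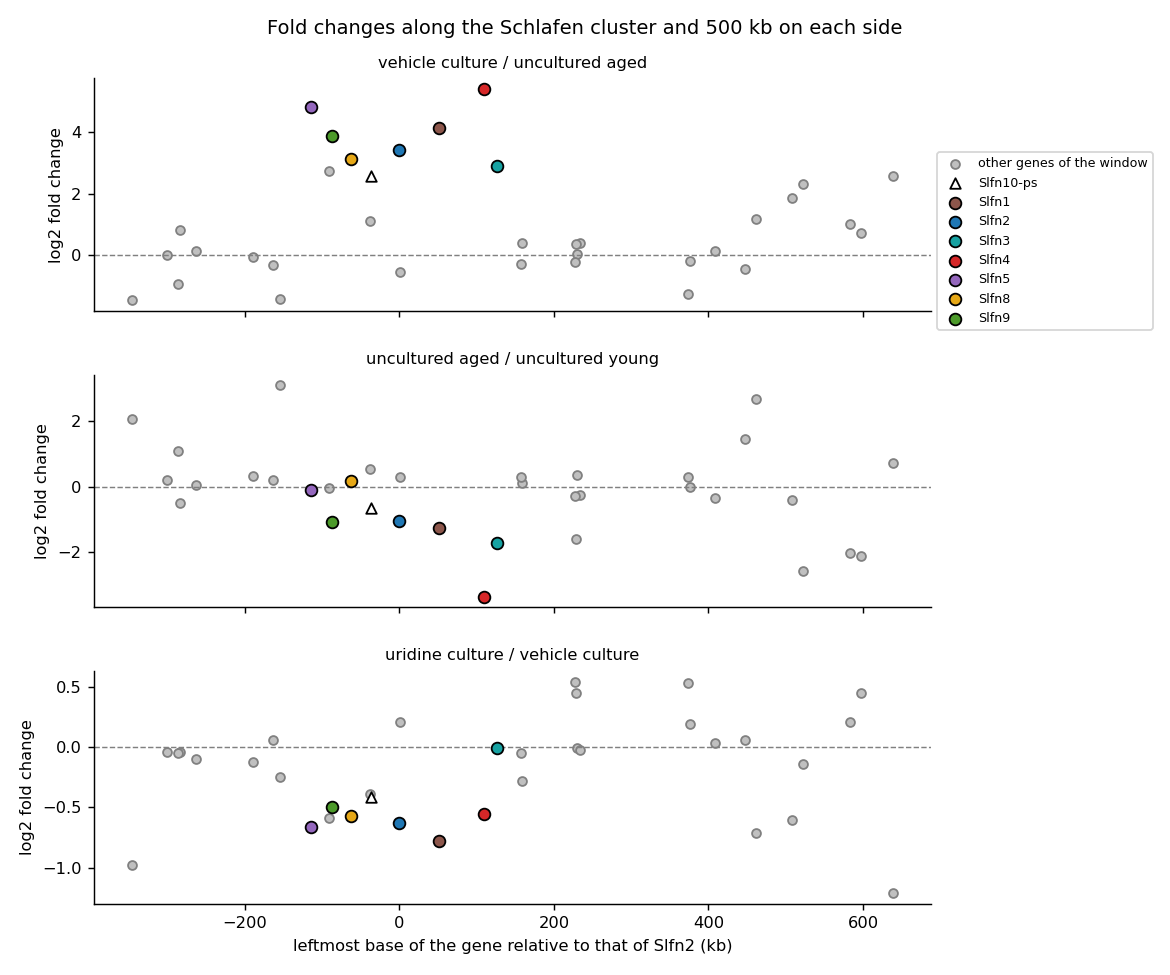
Log2 fold change of each tested gene against its distance from Slfn2 in kb (leftmost bases), over the Schlafen cluster and 500 kb on each side, for vehicle culture over uncultured aged cells, uncultured aged over uncultured young cells and uridine over vehicle cultures. In culture the 7 Schlafen genes (coloured) lie between 2.92 and 5.41, above every grey gene of the window.

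The likeness of patterns was measured as the root mean square difference of centred log2 CPM over the 12 libraries, among 11910 protein-coding genes. Of the pairs of members, Slfn1 and Slfn9 were most alike (0.21), followed by Slfn2 and Slfn9 (0.27), and Slfn3 and Slfn5 were least alike (1.34). The most similar genes of Slfn5 were Irf7 (0.14), Gpr84 (0.2) and Ccl12 (0.21), but Ccl12 was at 0 CPM in both uncultured groups and at 1.78 and 2.59 CPM in uridine and vehicle cultures, so that its pattern there is set by the prior count of 2. The closest to Slfn8 were Gas2l1 (0.13), Xaf1 (0.14) and Ifi47 (0.14), and those to Slfn9 were Clec4e (0.14), Cmpk2 (0.14) and Oas1a (0.15). Slfn1 was closest to Clec4e (0.2), Slfn9 (0.21) and Oas1a (0.21). Slfn2 was closest to Slc39a10 (0.12), Lgals3 (0.14) and Csf2rb2 (0.15), and Slfn3 to Fyb (0.17), Pde5a (0.18) and Sh3pxd2b (0.18). Slfn4 had the most distant nearest genes, Klra2 (0.3), Tlr13 (0.31) and Bst1 (0.33). The 12 libraries fall into 4 groups, so these values describe the group means more than the spread within groups.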

How the data were processed

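The authors deposited raw counts of reads for each gene of 12 libraries of poly(A) RNA read as pairs of 150 bases on a NovaSeq 6000, per the labels' protocols, and the submitters' processing notes name HISAT2 2.0.5 and the mm10 build. The counting program, its annotation and its strand setting were not stated there. Of 54532 IDs, 54409 matched GENCODE M21 and 123 did not. Groups came from the sample titles.

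Genes were filtered with filterByExpr, scaled by TMM and fitted in R 4.3.3 with the edgeR 4.0.16 quasi-likelihood method, with 1 mean per group over all 12 libraries (residual degrees of freedom 8, prior 26.5, common biological coefficient of variation 0.0438). P-values were adjusted by Benjamini-Hochberg over 16675 genes. The within-group pairs of libraries differed by 2.25 to 3.88 chi-square units per degree of freedom, so none was counted as a repeat. DESeq2 1.42.0 and limma 3.58.1 (voom), other scalings, filters and sample sets were alternatives. The pipeline was also run on simulated data in which far fewer genes were changed than were called here. That run therefore does not test scaling or error control for differences as wide as these. The members, the gene lists, the rule for named genes and the tests were chosen with earlier results of these data known, so no pattern here is independent support for them. Named genes were the members, the other Schlafen genes, up to 3 called members per list and comparison with the smallest p, the 3 most similar genes of each member, and neighbours of the cluster. Kit, Cd34, Slfn5os, Gm11427 and the markers of the young-like part were named after their values were seen.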

Additional observations from a re-analysis of the deposited data

How the results depend on the processing

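Over the 3 comparisons, the 7 members gave 448 values under 22 alternatives, of which 439 kept their direction and their side of the threshold. The sign of Slfn3 in uridine against vehicle turned with upper quartile factors (0.000622), in a fit of the 6 compared libraries (1.86e-05), without vehicle library 1 (0.00975) and after subtraction of the young-like part (0.331); leaving out 1 library gave -0.0402 to 0.00975. That subtraction also lost the calls of Slfn8 (-0.0726) and Slfn9 (-0.037), and the genes called fell to 2758 (1088 higher and 1670 lower). Slfn8 in aged against young cells passed the threshold without uncultured aged library 1 (0.264) or 2 (0.244) or uncultured young library 3 (0.222); the cause was not tested. Leaving out 1 library gave 5461 to 6627 genes called with uridine, 10399 to 11019 with age and 11372 to 11944 in culture, against 6360, 10889 and 11748. Members called then ran from 6 to 6, 5 to 6 and 7 to 7.

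The replicate numbers did not pair the samples, with correlations of deviations between same-numbered libraries of -0.0187 to 0.0207 over the 3 comparisons. With the number as a replicate block, 6250, 10768 and 11667 genes and 6, 5 and 7 members were called for uridine, age and culture. Slfn1 in uncultured aged cells rests on 27 to 48 counts a library, so its differences there are the least precise.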
